A study of Mus musculus with 21 samples.

Results

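The 10 genes Nr4a1, Nr4a2, Nr4a3, Fos, Fosb, Egr1, Crem, Rgs2, Pde4d and Sik1 are known targets of cyclic AMP (cAMP) signalling or immediate early genes, which cells transcribe within minutes of a stimulus. They were taken by gene name from the 54532 genes of the deposited count tables, and all 10 were found. Their RNA was followed through 21 RNA-seq libraries in 7 groups of wild-type mouse cells, made in a study that turned fibroblasts into hepatocyte-like cells with small molecules. Forskolin, a plant compound that activates adenylyl cyclase and so raises cAMP, was part of every induction mixture, and it was absent from fibroblasts and cultured hepatocytes.

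C6FAE cells (n = 3) were mouse embryonic fibroblasts kept in a knockout serum replacement medium with 50 ng/ml bFGF, 20 µM CHIR99021 (a GSK3 inhibitor), 616452 (which blocks the TGF-beta receptor) at 10 µM, Forskolin at 50 µM, the DOT1L inhibitor EPZ004777 at 5 µM and the retinoid AM580 at 0.05 µM. C6F(L) cells (n = 3) were embryonic fibroblasts in a hepatocyte medium with 1 µM dexamethasone, 10 mM nicotinamide, 10 ng/ml FGF4, 20 ng/ml HGF and 20 ng/ml EGF. They received CHIR99021, 616452 and Forskolin at 20, 10 and 50 µM for 4 days and at 3, 2 and 2 µM afterwards. C6FAE-C6F(L) cells (n = 4) had 4 days of C6FAE before C6F(L). C6F5UE-C6F(L)V cells (n = 3) had a first stage with EPZ004777 in which AM580 was replaced by the retinoid CH55 (1 µM) and the histone methyltransferase inhibitor UNC0638 (0.05 µM), followed by C6F(L) with 50 µg/ml vitamin C. NSF-CiHeps (n = 3) had the same 2 stages but started from neonatal skin fibroblasts. The groups without Forskolin were pHeps (n = 2), liver hepatocytes cultured for 2 days, and MEF (n = 3), embryonic fibroblasts in DMEM with 10% serum. Forskolin was never given without CHIR99021 and 616452, so the agents cannot be told apart, and no collection day is labelled for the induced cells. All cells were digested with trypsin before RNA was extracted, and the time this took is not given.

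Cyclic AMP releases the catalytic subunits of protein kinase A, which phosphorylate the transcription factor CREB. CREB binds the cAMP response element in the promoters of its targets, and the same element and its shorter forms are found before many immediate early genes. Several targets act back on the pathway, by breaking down cAMP, by competing with CREB or by holding its coactivators in the cytoplasm. In hepatocytes this pathway carries the glucagon signal and induces genes of glucose production.

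The promoters of the members with at least 2 copies of the short form of this element are shown because the groups differ in exposure to a cAMP-raising agent. The full element TGACGTCA contains the short form TGACG on each strand (CGTCA when read on the other strand), and a full element counts as both. They were searched in the 250 bases before the RefSeq transcription start (GRCm38.p6) of 7 of the 10 members. Of 32851 RefSeq promoter windows of this length, 17.8% held at least 1 short form, 3.9% at least 2 and 0.137% at least 4. Nr4a1, Nr4a2 and Nr4a3 each held 4, Fos and Rgs2 held 2 each, Fosb held 1 and Pde4d held 0. The Pde4d window (chr13:108653927-108654176) lies inside the span of the gene, so its 0 covers that start only. The full element, present in 1.55% of windows, was in 0 of these 7 windows, and so was the CArG box, the site of serum response factor, which 1.47% of all windows held. A match is a run of letters and not a measured binding site. Sites more than 250 bases before the start would be missed, so absence from a window is not absence from the gene. Egr1, Crem and Sik1 were not searched. The windows below are written 5′ to 3′ on the gene's strand with each short form in capitals, without the bases that GENCODE M21 places in an exon. They cover chr15:101266596-101266845 (plus strand), chr2:57124004-57124253 (minus), chr4:48045055-48045152 (plus), chr12:85473640-85473889 (plus) and chr1:144004162-144004399 (minus).
Nr4a1: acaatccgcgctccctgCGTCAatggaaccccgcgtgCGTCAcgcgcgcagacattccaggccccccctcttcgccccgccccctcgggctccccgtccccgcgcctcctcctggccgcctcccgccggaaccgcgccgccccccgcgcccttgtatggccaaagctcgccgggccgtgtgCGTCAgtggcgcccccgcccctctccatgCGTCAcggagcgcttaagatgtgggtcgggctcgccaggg
Nr4a2: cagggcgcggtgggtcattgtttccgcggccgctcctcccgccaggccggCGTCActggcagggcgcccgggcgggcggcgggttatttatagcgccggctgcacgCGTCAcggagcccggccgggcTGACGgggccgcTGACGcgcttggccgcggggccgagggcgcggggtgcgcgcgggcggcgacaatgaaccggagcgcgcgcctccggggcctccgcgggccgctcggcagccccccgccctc
Nr4a3: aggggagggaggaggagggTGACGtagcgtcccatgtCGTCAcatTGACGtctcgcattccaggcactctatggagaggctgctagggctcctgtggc
Fos: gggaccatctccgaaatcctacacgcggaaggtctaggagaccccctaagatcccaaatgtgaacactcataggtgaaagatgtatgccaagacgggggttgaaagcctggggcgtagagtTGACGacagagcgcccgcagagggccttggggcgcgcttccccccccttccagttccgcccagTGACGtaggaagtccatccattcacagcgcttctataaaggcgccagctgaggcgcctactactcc
Rgs2: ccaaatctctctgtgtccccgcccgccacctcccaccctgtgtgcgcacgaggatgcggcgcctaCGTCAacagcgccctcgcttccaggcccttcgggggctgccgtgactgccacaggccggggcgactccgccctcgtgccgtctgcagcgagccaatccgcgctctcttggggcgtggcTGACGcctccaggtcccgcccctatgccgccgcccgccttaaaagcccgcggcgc
In Nr4a1 the site nearest the start began 40 bases before it, and the RefSeq start itself lies inside the span that the deposited tables give the gene. In Fos the nearest site began 66 bases before the start and in Rgs2 67 bases before it. The fourth site of Nr4a3 lies in the 152 bases left out.

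Total counts per library ran from 9180939 to 12319883. The labelled cell types were checked with marker lists. Hepatocyte markers summed to 22500 to 29700 CPM (counts scaled to a common library size with the trimmed mean of M values) in C6F5UE-C6F(L)V and 26600 to 28100 CPM in pHeps, but to 332 to 2150 in NSF-CiHeps, 446 to 1620 in C6FAE-C6F(L), 8.31 to 40.5 in C6F(L) and 2.09 to 2.92 in C6FAE, against 1.54 to 3.03 in MEF. Fibroblast markers stayed at 28600 to 32300 CPM in C6F(L), against 37500 to 38100 CPM in MEF. C6FAE-C6F(L) also held 8510 to 15600 CPM of keratinocyte markers. Macrophage markers summed to 21.9 to 344 CPM in the 5 groups with Forskolin, against 1350 to 1410 CPM in pHeps and 1470 to 1840 CPM in MEF, and C1qa, C1qb, C1qc, Adgre1 and Tyrobp were at 0 in 4 of those 5 groups. Exposure to Forskolin and macrophage RNA thus moved together, and the part of macrophage RNA in the members' levels was not tested. Ribosomal protein genes took 3.92% of counts in C6FAE-C6F(L) replicate 4 and 8.14% to 9.91% in replicates 1 to 3, so replicate 4 stood apart, and values without it are given where it changes a call. Nothing in the labels says that the libraries of a group are separate cultures, so p-values measure the spread between these libraries, which may be technical. Groups fitted together share 1 estimate of the spread per gene, and C6FAE-C6F(L) libraries differed more from each other than those of MEF, C6FAE or C6F(L). P-values of C6FAE or C6F(L) over MEF thus include the spread of a group not compared. Those of C6FAE-C6F(L) may understate its own spread. In bulk RNA, fewer cells that express a gene and less RNA per cell cannot be told apart.

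The 3 NR4A genes encode orphan nuclear receptors that are induced without new protein synthesis. Nr4a1 (ENSMUSG00000023034, GRCm38 chromosome 15, 101254269 to 101274795) was highest in C6F(L), with 525, 603 and 520 CPM. It was at 81.5, 79.1 and 79.7 CPM in C6FAE and at 20.5, 21.9, 7.52 and 35.7 CPM in C6FAE-C6F(L), against 158, 163 and 154 CPM in MEF. These 4 groups did not overlap. C6F5UE-C6F(L)V had 25.4, 45.5 and 12.8 CPM, NSF-CiHeps 32 to 75.7 CPM and pHeps 7.7 and 7.45 CPM. C6FAE-C6F(L) overlapped C6F5UE-C6F(L)V and pHeps, which did not overlap each other.

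Nr4a2 (ENSMUSG00000026826, chromosome 2, 57106830 to 57124003) had another order. Its highest group was C6FAE, at 19.5, 16.9 and 20.6 CPM, and C6F(L) followed at 12.2, 13.5 and 11.6 CPM. C6FAE-C6F(L) had 4.18 to 4.78 CPM, against 10.6, 6.85 and 8.82 CPM in MEF. All libraries of C6FAE and C6F(L) lay above all of MEF, and all of C6FAE-C6F(L) lay below. NSF-CiHeps libraries were uneven, at 15.7 CPM in replicate 1, 3.95 CPM in replicate 2 and 4.89 CPM in replicate 3. C6F5UE-C6F(L)V held 8.03 to 10.7 CPM and pHeps 1.85 and 3.11 CPM.

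Nr4a3 (ENSMUSG00000028341, chromosome 4, 48045153 to 48086447) had the lowest level per kilobase of the members in MEF. It reached 14.3, 11.9 and 9.68 CPM in C6F(L) and 3.79, 2.75 and 5.27 CPM in C6FAE, and it was at 0 to 1.53 CPM in C6FAE-C6F(L), against 2.84, 1.71 and 2.27 CPM in MEF. C6F(L) stood above every other group. In C6F5UE-C6F(L)V only 2 counts were seen in 3 libraries, both in replicate 2, and pHeps had 6 counts in 2 libraries.

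Fos and Fosb encode partners of Jun proteins in the AP-1 transcription factor, and Egr1 encodes a zinc finger factor that serum and growth factors induce. Fos (ENSMUSG00000021250, chromosome 12, 85473890 to 85477273) had 277, 337 and 278 CPM in C6F(L), 24.2, 32.3 and 23.4 CPM in C6FAE and 95.3, 127, 88.6 and 124 CPM in C6FAE-C6F(L), against 173, 166 and 167 CPM in MEF. None of these 4 groups overlapped. In C6F5UE-C6F(L)V it was at 290, 307 and 126 CPM, a range that took in all of C6F(L) except its highest library and all of MEF. NSF-CiHeps lay at 27.1 to 34.7 CPM, overlapping C6FAE, and pHeps were lowest at 10.1 and 10.6 CPM.

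Egr1 (ENSMUSG00000038418, chromosome 18) had 866, 1080 and 911 CPM in C6F(L), 100, 107 and 95.5 CPM in C6FAE and 160, 130, 111 and 245 CPM in C6FAE-C6F(L), against 854, 858 and 861 CPM in MEF. C6F(L) and MEF held the highest levels, and both pHeps libraries held the lowest, at 30.8 and 28.8 CPM. C6F5UE-C6F(L)V ran from 240 to 339 CPM and NSF-CiHeps from 84.3 to 132 CPM. Fosb (ENSMUSG00000003545, chromosome 7, 19302696 to 19310051) followed the same outline, with 13.9, 26.4 and 16.4 CPM in C6F(L), 1.86, 2.25 and 2.34 CPM in C6FAE and 1.44 to 4.88 CPM in C6FAE-C6F(L), against 12.9, 14.6 and 13.8 CPM in MEF. Fosb varied most within C6F5UE-C6F(L)V, at 28.1, 17 and 0.309 CPM.

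The other 4 members are known to limit cAMP or G protein signals. Crem (ENSMUSG00000063889, chromosome 18) encodes relatives of CREB that include repressors made from an internal promoter, which gene-level counts do not separate. It was highest in C6FAE, at 22.7, 22.5 and 21.8 CPM, and in pHeps, at 22.3 and 21.2 CPM, and these groups overlapped. C6F(L) had 11, 9.55 and 11.2 CPM and C6FAE-C6F(L) 3.9 to 7.21 CPM, against 15.1, 9.33 and 12.4 CPM in MEF. C6FAE-C6F(L) lay below every other group. A non-coding RNA annotated on the opposite strand of Crem held 80 counts against 3055 of Crem over all libraries, and whether counting used the strand is not given in the sources used here.

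Rgs2 (ENSMUSG00000026360, chromosome 1, 143999338 to 144004161) speeds the shut-off of G proteins. Its level was highest in C6F5UE-C6F(L)V, at 336, 343 and 184 CPM. It was at 105, 121 and 107 CPM in C6F(L) and 79.2, 75.4 and 73.8 CPM in C6FAE, and at 13.7 to 34 CPM in C6FAE-C6F(L), against 46.8, 43.9 and 42.4 CPM in MEF. C6FAE-C6F(L) overlapped pHeps, at 19.8 and 25.6 CPM, and no library of it reached the lowest of MEF.

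Pde4d (ENSMUSG00000021699, chromosome 13, 108449948 to 109953461), a phosphodiesterase that breaks down cAMP, had 71.5, 68.2 and 67.9 CPM in C6FAE, 57.9, 45 and 58.2 CPM in C6F(L) and 28.7, 19.2, 14.9 and 11.7 CPM in C6FAE-C6F(L), against 17.5, 16.6 and 16.9 CPM in MEF. C6FAE and C6F(L) lay far above MEF, while C6FAE-C6F(L) spanned it. A ribosomal protein pseudogene inside Pde4d held 866 counts against 7512 of Pde4d over all libraries. NSF-CiHeps ran from 24.8 to 49.5 CPM, C6F5UE-C6F(L)V from 11.3 to 17.6 CPM, and pHeps had 4 and 5.09 CPM.

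Sik1 (ENSMUSG00000024042, chromosome 17, 31844248 to 31855792), a kinase that keeps CREB's coactivators out of the nucleus, had 193, 216, 213 and 67.2 CPM in C6FAE-C6F(L), the last value in replicate 4. It was at 114, 114 and 117 CPM in C6F(L) and 91.2, 101 and 93.6 CPM in C6FAE, against 30.1, 24.7 and 28.7 CPM in MEF, its lowest group. C6F5UE-C6F(L)V had 104 to 139 CPM and NSF-CiHeps 65.4 to 101 CPM. Every library of the 5 groups with Forskolin lay above the pHeps libraries, at 56.8 and 41.9 CPM, and above MEF. No other member had all of its libraries with Forskolin above all of those without. The share of all genes that separated in this way is not given here, so no background stands beside this. Set per kilobase of the gene length in the deposited tables, the mean level in MEF was highest for Egr1 (191 CPM per kb), then Fos (71.7), Nr4a1 (45.1) and Rgs2 (12.2), and lowest for Nr4a3 (0.38). In C6FAE-C6F(L) the order opened with Fos (46.3), Sik1 (38.2) and Egr1 (36).

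**Figure D1:**
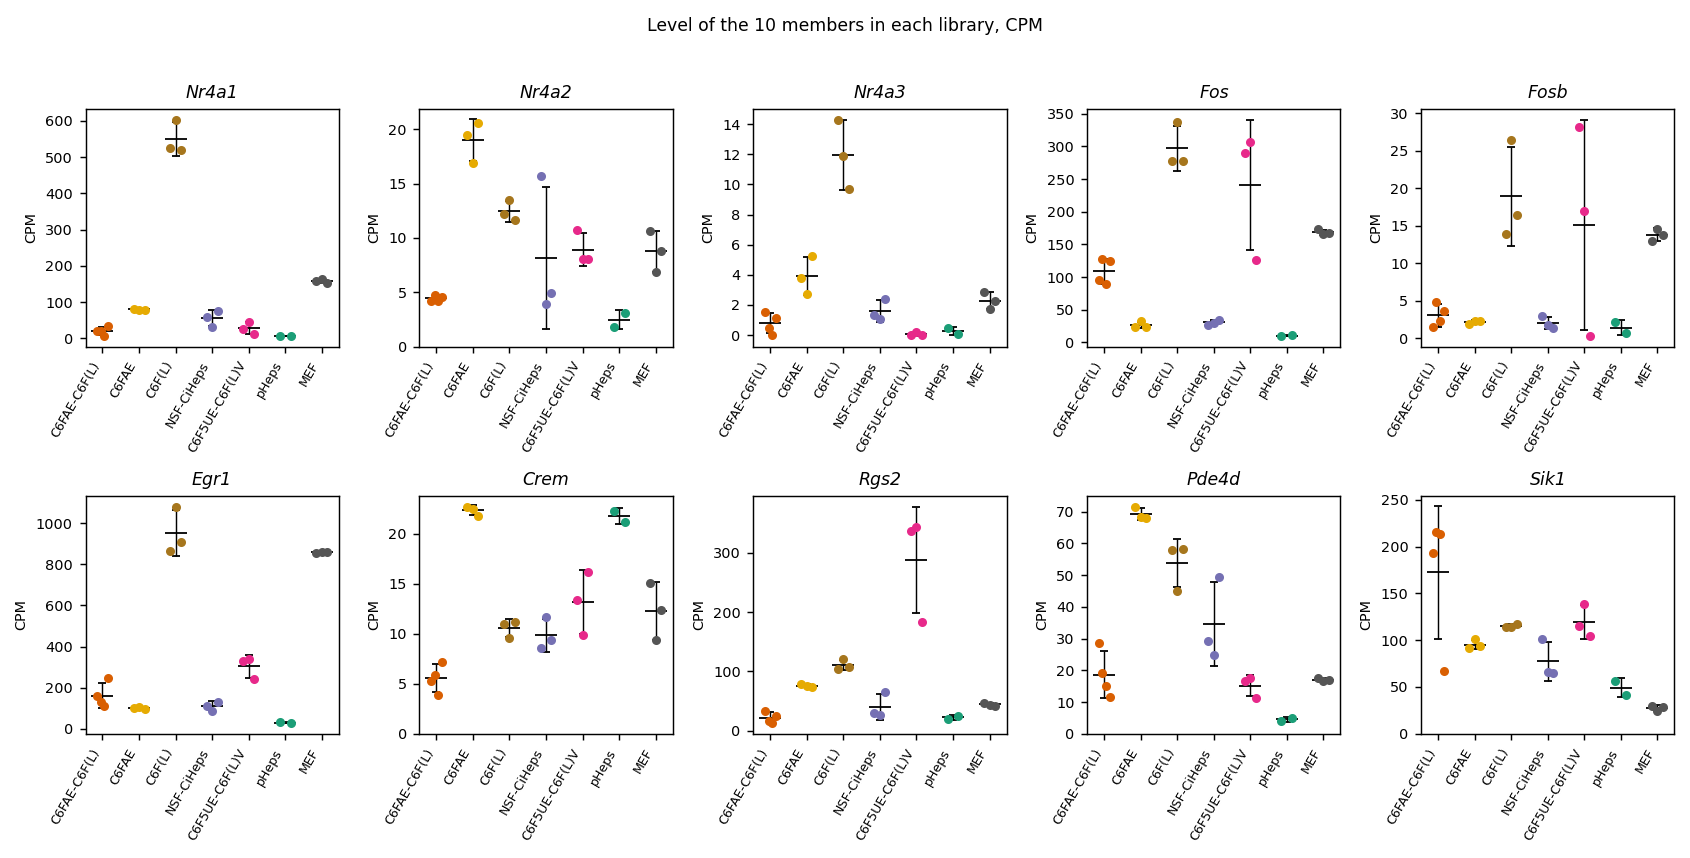
Level of each member in each library, in CPM on a linear axis that differs between genes. Points are libraries, horizontal marks are group means and bars are SD. Nr4a1, Nr4a3, Fos, Fosb and Egr1 have their highest mean in C6F(L), Nr4a2, Crem and Pde4d in C6FAE, Rgs2 in C6F5UE-C6F(L)V and Sik1 in C6FAE-C6F(L).

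The first comparison set C6FAE, with Forskolin kept at 50 µM, against MEF. The medium differed as well, with serum at 10% in MEF and serum replacement, bFGF and the other agents in C6FAE. These cannot be told apart from Forskolin. The factors Fos, Fosb and Egr1 were lower in C6FAE than in MEF, and the receptor Nr4a2, the phosphodiesterase Pde4d and the kinase Sik1 were higher. Fos fell by 2.66 on the log2 scale (SE 0.17, edgeR adjusted p = 2.1e-07), Fosb fell by 2.67 (SE 0.38, adjusted p = 1.0e-04) and Egr1 fell by 3.08 (SE 0.25, adjusted p = 1.1e-06). Pde4d rose 4.09-fold (log2 fold change 2.03, SE 0.25, adjusted p = 3.4e-05), Sik1 rose 3.44-fold (1.78, SE 0.33, adjusted p = 6.6e-04) and Nr4a2 rose 2.18-fold (1.12, SE 0.17, adjusted p = 1.6e-04). Calls required an adjusted p below 0.05 together with a log2 fold change of 1 or more in either direction. By this rule 3 of 10 members rose and 3 fell, where 15.6% of the 16535 genes tested rose and 14.7% fell. The members' median log2 fold change was 0.79, against 0.02 over all genes tested. Crem (0.87, adjusted p = 0.00425), Rgs2 (0.78, adjusted p = 0.0155) and Nr4a1 (-0.98, adjusted p = 0.0316) missed the fold threshold without overlap between the groups, and Nr4a3 (0.8, adjusted p = 0.263) missed both. Without MEF replicate 2 the log2 fold change of Nr4a2 was 0.97, just under the threshold, and without MEF replicate 1 that of Crem was 1.04, just over it.

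C6F(L), in which Forskolin was lowered to 2 µM and dexamethasone and growth factors were present, had 5 members higher than MEF. Of these, Pde4d and Sik1 were also called higher in C6FAE over MEF. Nr4a1 rose 3.47-fold (log2 fold change 1.8, SE 0.35, adjusted p = 0.00154) and Nr4a3 5.25-fold (2.39, SE 0.58, adjusted p = 0.00561). Sik1 rose 4.14-fold (2.05, SE 0.33, adjusted p = 3.8e-04), Pde4d 3.16-fold (1.66, SE 0.25, adjusted p = 2.4e-04) and Rgs2 2.5-fold (1.32, SE 0.24, adjusted p = 9.6e-04). In all, 5 of 10 members rose and 0 fell, where 10.6% of genes tested rose and 12.4% fell. The median log2 fold change was 1.07 over the members and 0.01 over all genes. Fos (0.82, adjusted p = 0.00146) and Nr4a2 (0.5, adjusted p = 0.0318) stayed under the fold threshold, and Egr1 (0.15), Fosb (0.46) and Crem (-0.21) had adjusted p of 0.302 to 0.63. All 11 genes of a glucocorticoid response list rose in C6F(L) over MEF, led by Zbtb16 (7.1, SE 0.43), Fkbp5 (4.19, SE 0.21) and Klf15 (3.07, SE 0.39), against 2 that rose and 2 that fell in C6FAE over MEF, and the part of dexamethasone in the members' levels was not tested.

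C6FAE set directly against C6F(L) shows where the members parted between the mixtures. Fos (log2 fold change -3.47, SE 0.18, adjusted p = 7.2e-08), Egr1 (-3.23, SE 0.25, adjusted p = 1.5e-06), Fosb (-3.13, SE 0.38, adjusted p = 4.7e-05) and Nr4a1 (-2.77, SE 0.37, adjusted p = 8.1e-05) were lower in C6FAE. Crem was the 1 member that rose, 2.11-fold (1.08, SE 0.21, adjusted p = 0.00145). Nr4a3 also passed (-1.6, SE 0.55, adjusted p = 0.0331), but not when any 1 of the 6 libraries was left out (adjusted p 0.0536 to 0.124). Thus 1 member rose and 5 fell, where 13.6% of genes tested rose and 10.4% fell, and the members' median log2 fold change was -1.07 (0.01 over all genes). Pde4d (0.37, adjusted p = 0.228), Sik1 (-0.27, adjusted p = 0.518) and Rgs2 (-0.54, adjusted p = 0.0837) did not pass, and Nr4a2 (0.62, adjusted p = 0.0101) stayed under the fold threshold. The mixtures differ in medium, retinoid, DOT1L inhibitor, growth factors and final Forskolin dose at once, and these cannot be told apart.

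After both stages in turn, 5 members were called lower than in fibroblasts and Sik1 was called higher. In C6FAE-C6F(L), Sik1 rose 6.25-fold over MEF (log2 fold change 2.64, SE 0.32, adjusted p = 2.2e-05). Nr4a1 (-2.87, SE 0.34, adjusted p = 1.4e-05), Egr1 (-2.4, SE 0.22, adjusted p = 1.7e-06), Fosb (-2.17, SE 0.34, adjusted p = 1.4e-04) and Crem (-1.13, SE 0.2, adjusted p = 4.3e-04) fell. Nr4a3 passed narrowly (-1.49, adjusted p = 0.0473), and its adjusted p was 0.0591 to 0.13 without any 1 of MEF replicates 1 to 3 and 0.0927 without C6FAE-C6F(L) replicate 2. The count was 1 member higher and 5 lower of 10, where 18.2% of genes tested rose and 19.3% fell. Pde4d (0.15, adjusted p = 0.606), Nr4a2 (-0.97, adjusted p = 2.9e-04), Rgs2 (-0.98, adjusted p = 0.00243) and Fos (-0.62, adjusted p = 0.00292) were not called. Rgs2 was called without C6FAE-C6F(L) replicate 4 (-1.03) or replicate 1 (-1.26), and without MEF replicate 3 (-1.02). Nr4a2 was called without MEF replicate 2 (-1.12) or C6FAE-C6F(L) replicate 2 (-1.02). Without MEF replicate 1, Crem was not called (-0.98). The members' median log2 fold change was -1.05, and that of all genes 0.04.

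Set against C6FAE alone, C6FAE-C6F(L) had 6 members lower and 1 higher, where 17.6% of genes tested fell and 16.1% rose. The single rise was that of Fos, 4.1-fold (log2 fold change 2.04, SE 0.16, adjusted p = 6.9e-07). Nr4a3 (-2.29), Nr4a2 (-2.09), Crem (-2), Nr4a1 (-1.9), Pde4d (-1.89) and Rgs2 (-1.77) fell, with adjusted p of 6.0e-07 to 0.00508. Sik1 (0.86, adjusted p = 0.026) was under the fold threshold with replicate 4 and over it without (1.13). Against C6F(L) alone, 8 members fell and 0 rose, where 16.5% of genes tested fell and 15.5% rose. Nr4a1 had the largest fall of the 8 (-4.67, SE 0.36, adjusted p = 7.7e-07) and Fos the smallest (-1.44, SE 0.15, adjusted p = 7.4e-06). Crem (-0.92, adjusted p = 0.00231) and Sik1 (0.59, adjusted p = 0.108) were not called, and Crem was without replicate 4 (-1.07).

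The interaction asked whether the C6F(L) stage acted alike with and without C6FAE before it. It is the log2 difference of C6FAE-C6F(L) over C6FAE minus that of C6F(L) over MEF. For 7 members it was negative, with -4.68 for Nr4a3 (SE 0.82, adjusted p = 5.5e-04), -3.69 for Nr4a1 (SE 0.48, adjusted p = 6.2e-05), -3.55 for Pde4d (SE 0.34, adjusted p = 4.9e-06), -3.09 for Rgs2 (SE 0.33, adjusted p = 1.3e-05), -2.59 for Nr4a2, -1.78 for Crem and -1.19 for Sik1. For Fos it was positive (1.22, SE 0.22, adjusted p = 6.9e-04), and Egr1 (0.53, adjusted p = 0.181) and Fosb (0.05, adjusted p = 0.958) did not pass. Among all genes tested 16.8% had a negative and 16.2% a positive call. The call of Sik1 did not hold without replicate 4 (-0.92) or without any 1 of the 9 libraries of MEF, C6FAE and C6F(L) (adjusted p 0.0574 to 0.0866). The C6FAE-C6F(L) libraries were also those with keratinocyte markers at 8510 to 15600 CPM, against 25.2 to 281 CPM in C6F(L) and 27 to 34.3 CPM in C6FAE, and the part of that change in cell type was not tested.

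**Figure D2:**
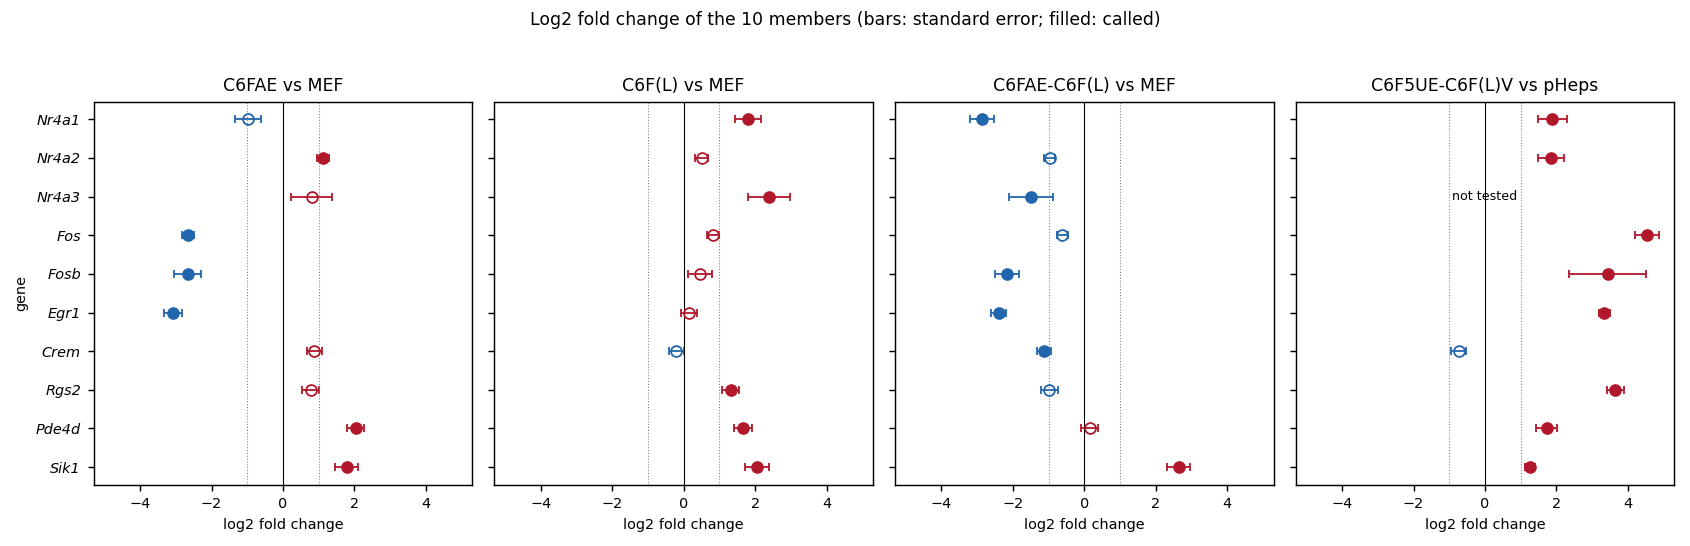
Log2 fold change of each member in C6FAE, C6F(L) and C6FAE-C6F(L) over MEF and in C6F5UE-C6F(L)V over pHeps. Points are estimates, bars are SE, filled points passed both thresholds and dotted lines mark a log2 fold change of 1 in size. Fos, Fosb and Egr1 lie to the left in C6FAE and to the right in C6F5UE-C6F(L)V, and Sik1 lies to the right in all 4 panels.

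The hepatocyte-like cells of the second protocol were next compared with cultured hepatocytes, the only comparison in that count table. Nearly every member was higher in C6F5UE-C6F(L)V than in pHeps, and the sums of hepatocyte markers overlapped, at 22500 to 29700 CPM in C6F5UE-C6F(L)V against 26600 to 28100 CPM in pHeps. Of the 10 genes in these sums, 2 were called higher and 3 lower, so the overlap is one of sums and not of each gene. Fos rose 23.1-fold (log2 fold change 4.53, SE 0.34, adjusted p = 1.9e-07), Rgs2 12.6-fold (3.65, SE 0.25, adjusted p = 7.7e-08) and Egr1 10.1-fold (3.34, SE 0.16, adjusted p = 2.5e-09). Nr4a1 rose 3.67-fold (1.88, SE 0.41), Nr4a2 3.57-fold (1.84, SE 0.37), Pde4d 3.32-fold (1.73, SE 0.29) and Sik1 2.4-fold (1.26, SE 0.15), with adjusted p of 1.3e-05 to 0.00172. Fosb (3.43, SE 1.07, adjusted p = 0.0152) overlapped between the groups, and its call was lost without C6F5UE-C6F(L)V replicate 1 (adjusted p = 0.0587) and without pHeps replicate 2 (adjusted p = 0.106). Of 9 members tested, 8 rose and 0 fell, where 18.4% of the 15531 genes tested rose and 14.7% fell, and the median log2 fold change was 1.88 over the members and 0.01 over all genes. Crem was lower (-0.74, adjusted p = 0.0129) but under the fold threshold. Nr4a3 failed the filter on low counts, and its 2 counts against 6 give a ratio of 0.238 with an exact 95% interval of 0.0235 to 1.33, which covers counting error only. All 10 macrophage markers fell in this comparison, and 5 of 6 tested endothelial markers fell with them. Fibroblast markers had 4 higher and 0 lower of 9 tested, glucocorticoid response genes 8 higher and 0 lower of 11, and heat shock genes 3 higher and 2 lower of 11. What part these had in the members' levels was not tested.

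Comparisons with MEF across count tables rest on a fit of all 21 libraries, in which table and group cannot be told apart. C6F5UE-C6F(L)V had Rgs2 6.48-fold (2.7, SE 0.34, adjusted p = 1.3e-06) and Sik1 4.28-fold higher (2.1, SE 0.31, adjusted p = 8.3e-06) than MEF, and Nr4a1 (-2.5, SE 0.43, adjusted p = 5.5e-05) and Egr1 (-1.5, SE 0.23, adjusted p = 1.4e-05) fell. Nr4a3 fell as well, with 2 counts against 79 in MEF, a ratio of 0.0301 (exact 95% interval 0.00359 to 0.112). Thus 2 members rose and 3 fell, where 25.7% of the 18605 genes tested rose and 26.4% fell. NSF-CiHeps had 2 members higher and 4 lower than MEF, where 17.1% of genes rose and 22.1% fell. Sik1 rose (1.47, SE 0.3), and so did Pde4d (1.02, SE 0.28), whose call was lost without NSF-CiHeps replicate 3 (0.69). Egr1 (-2.97, SE 0.24), Fosb (-2.75, SE 0.8), Fos (-2.46, SE 0.25) and Nr4a1 (-1.5, SE 0.42) fell. In pHeps 7 members fell and 0 rose over MEF, where 27.2% of genes fell and 24.4% rose. Egr1 (-4.85, SE 0.32), Nr4a1 (-4.38, SE 0.57), Fos (-4.03, SE 0.33), Fosb (-3.29), Nr4a3 (-2.93), Pde4d (-1.9) and Nr4a2 (-1.81) fell. Crem (0.83, adjusted p = 0.00615), Sik1 (0.83, adjusted p = 0.0337) and Rgs2 (-0.97, adjusted p = 0.0306) stayed under the fold threshold. Sik1 passed without pHeps replicate 2 (1.01, adjusted p = 0.0405) and Rgs2 with no filter on low counts (-1.03, adjusted p = 0.0151). The calls of Nr4a3 and Fosb in pHeps were lost without pHeps replicate 2 (adjusted p = 0.106 and 0.0801).

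NSF-CiHeps and C6F5UE-C6F(L)V shared a protocol and differed in the starting fibroblasts and in the count table. Fos (-2.98, SE 0.26, adjusted p = 6.7e-08), Rgs2 (-2.83, SE 0.34, adjusted p = 2.6e-06) and Egr1 (-1.47, SE 0.23, adjusted p = 4.3e-05) fell in NSF-CiHeps. Fosb fell too (-2.89, SE 0.8, adjusted p = 0.00637), with ranges that overlap. Pde4d rose 2.27-fold (1.18, SE 0.28, adjusted p = 0.00185), and Nr4a3 had 60 counts against 2, a ratio of 25.5 (exact 95% interval 6.76 to 215). That makes 2 members higher and 4 lower, where 12.3% of genes tested rose and 16.2% fell. The calls of Fosb without C6F5UE-C6F(L)V replicate 1 (adjusted p = 0.0527) and of Pde4d without NSF-CiHeps replicate 3 (0.87) did not hold. Nr4a1 (1.00, adjusted p = 0.0555) missed the p threshold but passed in 5 of 14 alternative settings. These were the fits without C6F5UE-C6F(L)V replicate 2 (1.6), without NSF-CiHeps replicate 2 (1.28), with the replicate block (1.09), with no filter on low counts (1.09) and without C6FAE-C6F(L) replicate 4 in the shared spread (1.00), with adjusted p of 0.00766 to 0.0303. Hepatocyte markers summed to 332 to 2150 CPM in NSF-CiHeps, against 22500 to 29700 CPM in C6F5UE-C6F(L)V.

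The comparison by exposure set the mean of the 5 groups with Forskolin against the mean of the 2 without, each group weighted equally. Pde4d rose 3.7-fold (log2 fold change 1.89, SE 0.21, adjusted p = 7.4e-07), Sik1 3.01-fold (1.59, SE 0.21, adjusted p = 5.9e-06), Rgs2 2.33-fold (1.22, SE 0.22, adjusted p = 2.1e-04), Fos 2.19-fold (1.13, SE 0.17, adjusted p = 2.6e-05) and Nr4a2 2.03-fold (1.02, SE 0.26, adjusted p = 0.00311). Nr4a1 (0.98, adjusted p = 0.0102), Egr1 (0.46, adjusted p = 0.0164) and Crem (-0.56, adjusted p = 0.00266) stayed under the fold threshold, and Nr4a3 (0.71, adjusted p = 0.379) and Fosb (0.24, adjusted p = 0.776) missed both. So 5 of 10 members rose and 0 fell, where 11.4% of genes tested rose and 9.26% fell. The p-values of this comparison measure the spread between libraries within groups, not that between groups of the same exposure. The groups also differ in count table, and MEF were in DMEM with 10% serum while the induced cells were in other media. The mean hides the groups beneath it, since MEF and pHeps lie far apart for several members. For Pde4d, C6F5UE-C6F(L)V (mean 15.2 CPM) and C6FAE-C6F(L) (18.7 CPM) overlapped MEF (17 CPM), and pHeps were at 4.54 CPM. For Fos, MEF lay above C6FAE, C6FAE-C6F(L) and NSF-CiHeps in every library, and pHeps lay below all induced cells. Nr4a1 passed in 6 of 27 alternative settings, with library size only (1.06), without 1 library in 4 fits (1.00 to 1.05) and by adjusted p alone. The 4 libraries were C6FAE-C6F(L) replicate 3, C6F5UE-C6F(L)V replicates 1 and 3 and NSF-CiHeps replicate 2. Nr4a2 lost its call without MEF replicate 2 (0.96), pHeps replicate 1 (0.86) or NSF-CiHeps replicate 1 (0.86). Macrophage markers were lower with exposure for all 10 genes of that list.

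Other genes of the pathway were described from lists of 27 immediate early genes, 20 CREB targets, 15 phosphodiesterases, 32 genes of cAMP synthesis and signalling and 11 ERK feedback genes, with changes given on the log2 scale unless written as a fold. In C6FAE over MEF the immediate early list had 3 genes higher and 12 lower of 27 tested, with a median log2 fold change of -0.79. Among all genes tested 15.6% rose and 14.7% fell in this comparison. Klf2, a factor known from endothelial cells (-4.4, SE 0.45), and Egr2, a relative of Egr1 (-3.86, SE 0.82), fell, and the phosphatase gene Dusp2 rose (4.49, SE 0.56). The CREB target list had 8 higher and 1 lower of 17, with a median of 1.16. Areg, a ligand of the EGF receptor, reached 34.4 ± 3.87 CPM in C6FAE, against 0.142 ± 0.0953 CPM in MEF (SD, n = 3 each; log2 fold change 7.8, SE 0.52), Ppargc1a, a coactivator of metabolic genes, rose by 3.14 (SE 0.37) and Star, which moves cholesterol into mitochondria, by 2.96 (SE 0.31). Of 14 phosphodiesterases tested, 7 rose and 2 fell. Pde11a rose (4.45, SE 0.49), Pde4c had 31 counts in C6FAE against 0 in MEF, at least 10.6-fold higher (floor of 3 counts over the group), and Pde1b fell by 2.88 (SE 0.51). These break down cAMP, cGMP or both. ERK feedback genes, which growth factor signals induce, had 4 higher and 0 lower of 11, among them Etv4 (2.36, SE 0.6), Dusp4 (1.89, SE 0.33) and Phlda1 (1.79, SE 0.13).

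In C6F(L) over MEF, 8 immediate early genes rose and 1 fell of 27, 10 CREB targets rose and 1 fell of 17, and 6 phosphodiesterases rose and 1 fell of 14. Among all genes tested 10.6% rose and 12.4% fell. Dusp1, a phosphatase of MAP kinases that the glucocorticoid list also holds, rose by 1.73 (SE 0.21) and Myc by 1.4 (SE 0.14), while Klf2 fell by 2.81 (SE 0.41). The neuropeptide precursor Vgf rose by 3.64 (SE 0.4), Areg rose by 3.84 (SE 0.64), and Tat, a liver enzyme, had 30 counts against 0, at least 10.8-fold higher. Among phosphodiesterases Pde3a rose by 2.5 (SE 0.32), Pde4c had 10 counts against 0, at least 3.61-fold higher, and Pde1b fell by 3.95 (SE 0.55). ERK feedback genes had 1 higher and 3 lower of 11, with Etv4 at -2.58 (SE 0.69), Etv5 at -2.23 (SE 0.12) and Spry1 at -1.69 (SE 0.4). Of the machinery of cAMP itself, 3 rose and 6 fell of 30 in C6FAE and 5 rose and 6 fell in C6F(L). Over all genes tested 15.6% rose and 14.7% fell in C6FAE, and 10.6% and 12.4% in C6F(L). Pkib, a protein kinase A inhibitor, had 0 counts in C6FAE and 1 in C6F(L), against 233 in MEF, which is at least 75.4-fold lower in C6FAE. In C6FAE its relative Pkia fell by 3.85 (SE 0.46) and Rapgef4, a cAMP-activated exchange factor, rose by 3.71 (SE 0.62). In C6F(L) the adenylyl cyclase Adcy7 (-5.8, SE 0.49) and the kinase A subunit Prkar1b (-2.49, SE 0.35) fell. The cyclases did not move together. Adcy1, Adcy2 and Adcy5 had means of 65.8, 35.1 and 72.7 CPM in C6F(L), against 24, 10.4 and 15.3 CPM in MEF. Adcy3, Adcy4 and Adcy9 had lower means, at 23.3, 2.11 and 11.9 CPM against 41.4, 6.15 and 15.1 CPM. All 10 macrophage markers fell in each of these comparisons, and their part in the lists was not tested. Of 16 genes of the RGS family, to which Rgs2 belongs, 4 rose and 7 fell in C6FAE and 1 rose and 8 fell in C6F(L).

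C6FAE-C6F(L) over MEF had 7 immediate early genes higher and 6 lower of 27 tested, 8 CREB targets higher and 4 lower of 17, and 3 phosphodiesterases higher and 8 lower of 14, where 18.2% of all genes tested rose and 19.3% fell. In the interaction, 10 of 17 CREB targets and 8 of 14 phosphodiesterases were called negative and 0 and 1 positive, while immediate early genes had 6 positive and 4 negative of 27. Over all genes tested 16.8% were called negative and 16.2% positive. In C6F5UE-C6F(L)V over pHeps, 14 immediate early genes rose and 1 fell of 26, and 10 CREB targets rose and 1 fell of 16, where 18.4% of all genes tested rose and 14.7% fell. Klf4 rose by 3.76 (SE 0.19), Arc by 3.36 (SE 0.5), and Egr3 had 93 counts against 0, at least 22.1-fold higher. Inha, which encodes an inhibin subunit, had 765 counts against 0, at least 182-fold higher, and G6pc, the last enzyme of glucose release, rose by 6.25 (SE 0.47). Vgf had 126 counts against 3, a ratio of 29.9 (exact 95% interval 10 to 147). Of 11 phosphodiesterases 3 rose and 2 fell: Pde3a rose by 3.81 (SE 0.79), Pde4b, which the CREB list also holds, fell by 2.84 (SE 0.24), and Pde1b had 2 counts against 89, a ratio of 0.016 (0.00191 to 0.0596). Of 29 genes of cAMP synthesis and signalling 7 rose and 2 fell, with Rapgef3 higher (2.96, SE 0.4) and Adcy7 (-3.65, SE 0.41) and Pkib (3 counts against 122) lower. ERK feedback genes had 2 higher, Spry1 (1.94, SE 0.27) and Spry2 (1.58, SE 0.37), and Etv5 lower (-1.31, SE 0.22).

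**Figure D3:**
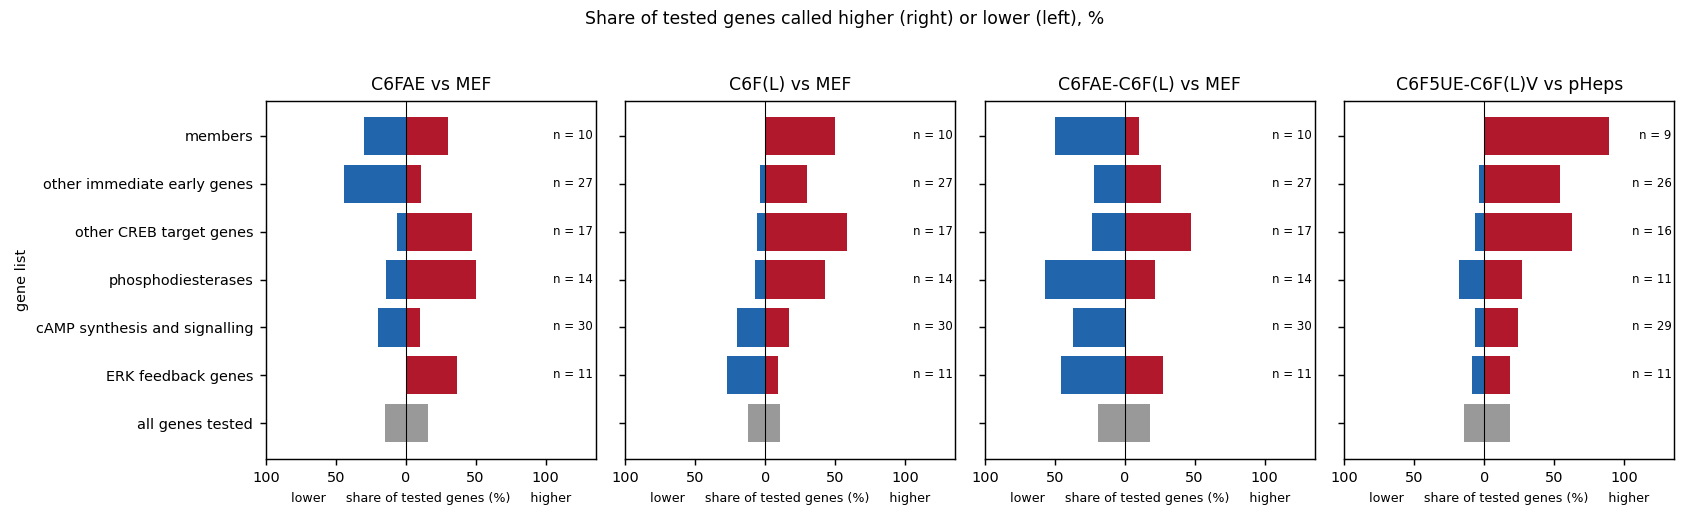
Share of the tested genes of each list called higher (red, to the right) or lower (blue, to the left) in 4 comparisons, in percent, with grey bars for all genes tested and the number of genes tested in each list at the right. In C6FAE the immediate early genes lie mostly to the left (12 of 27) and the CREB targets to the right (8 of 17), and in C6F5UE-C6F(L)V over pHeps both lie to the right (14 of 26 and 10 of 16).

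Across the 21 libraries the members followed no single pattern. Pearson's r of log2 CPM, which here describes libraries that share groups, depth and scaling, was 0.89 between Fos and Egr1 and between Nr4a1 and Nr4a3, 0.8 between Fosb and Egr1 and 0.76 between Fos and Fosb. Pde4d went with Nr4a2 and Nr4a3 (0.75 each). Crem was negative with Fos (-0.46) and Sik1 (-0.44) and at 0.05 with Nr4a1. Among 11826 genes averaging 5 CPM or more, the genes most like Nr4a1 in the 21 libraries were Rab11fip3 (r = 0.96), Ggcx, Cplane1, Cyr61 and Cdon (0.95 each). Among those most like Fos were Rbl2 and Upk3b (0.92) and Trnp1 and Ier2 (0.91), and those most like Crem were Rmdn2 and Hacd1 (0.88) and Slc41a2, Slc38a4 and Hnrnpll (0.87). Of these, Cyr61 and Ier2 are on the list of other immediate early genes.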

How the data were processed

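Polyadenylated RNA was sequenced from 1 µg of RNA per library, per the labels' protocols. Reads were aligned with HISAT2 to GRCm38 (mm10), per the submitters' processing notes. Which tool counted the reads, and whether by strand, is not given in the sources used here. The authors deposited raw counts per gene in 3 tables of 13, 5 and 3 libraries. The deposited FPKM tables were not used.

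Levels are CPM with TMM scaling over all 21 libraries. Counts were tested with edgeR 4.0.16 (R 4.3.3) quasi-likelihood F tests after filterByExpr (minimum count 10, minimum total 15). The groups of 1 table were fitted together, and comparisons across tables used 21 libraries. Benjamini-Hochberg adjustment ran over all genes tested, and a call needed adjusted p below 0.05 and a log2 fold change of at least 1 in size. DESeq2 1.42.0 was an alternative. Folds against a group at 0 counts used a floor of 3 counts over the group, which covers counting error only. All 10 members are named, with the 3 called genes of largest fold per pathway list in each of C6FAE and C6F(L) over MEF and C6F5UE-C6F(L)V over pHeps (mean of at least 1 CPM), and the 5 genes most like Nr4a1, Fos and Crem, of which 1 is not reported here. Marker, RGS and heat shock lists are given as sums or counts. The members and lists were chosen with earlier results of these data known.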

Additional observations from a re-analysis of the deposited data

Results flagged for a closer look

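Sik1 in C6FAE-C6F(L) had 1 library far below the other 3, replicate 4 at 67.2 CPM against 193 to 216 CPM, with a gap of 0.845 of the whole range (critical value 0.829 for 4 libraries). Chance gives such a gap in about 1 in 20 groups, and this group was checked for 10 members. Ribosomal protein genes took 3.92% of the counts of that library and 8.14% to 9.91% of those of replicates 1 to 3. Its fibroblast markers summed to 4370 CPM and its heat shock genes to 4490 CPM, against 468 to 1470 CPM and 3280 to 3340 CPM in replicates 1 to 3. What part these had in the level of Sik1 was not tested.

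For 8 members the C6F(L) stage differed with and without C6FAE before it, by the interaction in edgeR. The log2 interaction was -3.69 for Nr4a1, -2.59 for Nr4a2, -4.68 for Nr4a3, 1.22 for Fos, -1.78 for Crem, -3.09 for Rgs2, -3.55 for Pde4d and -1.19 for Sik1. Among all genes tested 16.8% had a negative and 16.2% a positive call. The call of Sik1 was lost in 11 of 20 alternative settings, among them without replicate 4 of C6FAE-C6F(L) and with the replicate block (-0.92 each). The block has a term that only replicate 4 carries, so both settings set that library aside.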

How the results depend on the processing

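Over 2028 alternative values of the members' log2 fold changes, 1916 kept direction and call, 41 lost the call, 43 gained it and 28 turned sign, and 0 of the turned values passed the thresholds. The same-numbered libraries did not deviate together (57 pairs, correlation -0.103 to 0.05), so the numbers do not pair libraries. Replicate number 4 occurs only in C6FAE-C6F(L), so the replicate block fits that library by a term of its own. The block thus takes it out of the estimate of its group, as leaving it out does. With the replicate block, Fosb turned to -0.06 in the interaction and -0.1 in C6F5UE-C6F(L)V over MEF, and the interaction of Sik1 lost its call (-0.92). The block added calls for Rgs2 in C6FAE-C6F(L) over MEF (-1.07), for Sik1 in C6FAE-C6F(L) over C6FAE (1.13), for Crem in C6FAE-C6F(L) over C6F(L) (-1.07) and for Nr4a1 in NSF-CiHeps over C6F5UE-C6F(L)V (1.09). With a call by adjusted p alone, all genes called numbered 8954 (C6FAE over MEF), 7131 (C6F(L) over MEF), 10443 (C6FAE-C6F(L) over MEF), 7465 (C6FAE over C6F(L)), 9458 (C6FAE-C6F(L) over C6FAE), 9198 (C6FAE-C6F(L) over C6F(L)), 8957 (C6F5UE-C6F(L)V over pHeps), 11289 (NSF-CiHeps over MEF), 9139 (NSF-CiHeps over C6F5UE-C6F(L)V) and 9072 (exposure), and members called by exposure numbered 8, since this drops the fold threshold. Fosb also turned to -0.01 in the interaction with library size only. Nr4a2 in C6F5UE-C6F(L)V over MEF was at -0.00 with RLE size factors and with DESeq2 and -0.05 with no filter on low counts, and in NSF-CiHeps over MEF at 0.03 with library size only. Leaving out 1 library gave -0.14 to 0.32 for Pde4d in C6FAE-C6F(L) over MEF and -0.29 to 0.34 for Fosb in the interaction. In C6F5UE-C6F(L)V over MEF it gave -0.14 to 0.16 for Nr4a2, -0.68 to 0.71 for Fosb, -0.09 to 0.25 for Crem and -0.3 to 0.01 for Pde4d. In NSF-CiHeps over MEF it gave -0.96 to 0.23 for Nr4a2 and -0.65 to 0.09 for Rgs2, in NSF-CiHeps over C6F5UE-C6F(L)V -0.97 to 0.2 for Nr4a2, and by exposure -0.06 to 0.78 for Fosb. The cause was not tested. Beyond the calls given with the results, DESeq2 lost Fosb in C6F5UE-C6F(L)V over pHeps (adjusted p = 0.0794), the fit of the compared groups alone lost Fosb in NSF-CiHeps over C6F5UE-C6F(L)V (adjusted p = 0.0642), and RLE size factors and DESeq2 lost Pde4d in NSF-CiHeps over MEF (0.97 each). Library size only moved the median of all genes to 0.12 in C6FAE over MEF and over C6F(L), to 0.15 and 0.12 in C6F5UE-C6F(L)V over pHeps and over MEF, to 0.11 in NSF-CiHeps over MEF and to 0.13 by exposure. The fits without C6FAE-C6F(L) replicate 4 in the shared spread were chosen after seeing the data. So were those with only the groups compared for comparisons within 1 count table, while those across count tables were planned. Depth limits Nr4a3 most, with 2 counts in C6F5UE-C6F(L)V.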
